A study of Mus musculus with 2 samples.

Results

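Hedgehog signalling sets the pace of growth-plate cartilage. Prehypertrophic chondrocytes secrete Indian hedgehog, which binds the receptor PTCH1 and so frees the membrane protein SMO to act on the GLI transcription factors. Indian hedgehog also induces parathyroid hormone-related protein, whose receptor PTH1R holds chondrocytes back from hypertrophy. The account below covers called binding of SOX6 and SOX9, HMG-box factors of cartilage, at 5 genes of this circuit: Ptch1, Hhip, Gli2, Gli3 and Pth1r.

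The members are all called peaks whose centre lies in 1 of 5 windows of the mouse build mm9, each set around 1 gene. The windows are chromosome 13 from 63590000 to 63690000 for Ptch1, chromosome 8 from 82470000 to 82610000 for Hhip, chromosome 1 from 120710000 to 120980000 for Gli2, chromosome 13 from 15530000 to 15840000 for Gli3 and chromosome 9 from 110610000 to 110670000 for Pth1r. They held 90 of 79107 Sox6 peaks and 17 of 23865 Sox9 peaks, or 107 of 102972 in all. Sox6 peaks come from 1 ChIP-seq library of primary rib chondrocytes of untreated wild-type ICR mice at postnatal day 1 (P1), cut out so as to hold proliferative and prehypertrophic but not mature hypertrophic cartilage. An input DNA sample without antibody belongs to the same cells, and no peak list of it was analysed here. The Sox9 peaks come from a re-analysis of 2 earlier Sox9 ChIP-seq samples of mouse primary rib chondrocytes, for which the sources used here give no strain or age. Neither list comes with a number of animals. Each factor has a single list without replicates, and the lists hold positions without scores or read counts. No difference between loci or between factors could therefore be tested, the depth is unknown, and factor, antibody and library cannot be told apart. Without expression data the labelled cell type could not be checked against markers.

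Peaks were placed within the windows but not on promoters, exons or introns, because no mm9 annotation was used. In the GRCm38 gene table the nearest protein-coding neighbours of 4 of the genes are Fancc and Ercc6l2 for Ptch1, Tfcp2l1 and Inhbb for Gli2, AW209491 and Inhba for Gli3, and Ccdc12 and Myl3 for Pth1r. A peak in a window is thus near the named gene and is not shown to act on it.

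The promoters of the 5 genes, from 250 bases before to 50 after each transcription start, were read from RefSeq on GRCm38.p6 and searched for 2 forms of the short sequence that SOX HMG boxes recognise. The core form ACAAT was in none of the 7 promoters of these genes on either strand, against 31.0% of 32851 mouse promoters. The 7 include 3 of Pth1r, and the background was not matched for G and C content, so no lack is read from this. The form ACAAAG was in 1 of the 7, against 18.7% of all promoters. That match lies in the most upstream of 3 annotated Pth1r promoters, starting at base 213 of the printed sequence. Of the 3 Pth1r promoters, the one printed is the only one with a match. Pth1r is shown because its window had the densest Sox6 binding of the 5, and Hhip because its window had no peak. Both genes lie on the minus strand, and capitals mark the match. They cover chr9:110747096-110747395 for Pth1r and chr8:80057959-80058258 for Hhip.
Pth1r: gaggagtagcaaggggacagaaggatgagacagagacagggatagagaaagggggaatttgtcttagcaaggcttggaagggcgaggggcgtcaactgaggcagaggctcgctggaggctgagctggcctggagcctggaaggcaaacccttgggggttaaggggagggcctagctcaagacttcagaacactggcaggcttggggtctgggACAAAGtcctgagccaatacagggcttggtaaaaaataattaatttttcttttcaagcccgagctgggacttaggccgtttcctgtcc
Hhip: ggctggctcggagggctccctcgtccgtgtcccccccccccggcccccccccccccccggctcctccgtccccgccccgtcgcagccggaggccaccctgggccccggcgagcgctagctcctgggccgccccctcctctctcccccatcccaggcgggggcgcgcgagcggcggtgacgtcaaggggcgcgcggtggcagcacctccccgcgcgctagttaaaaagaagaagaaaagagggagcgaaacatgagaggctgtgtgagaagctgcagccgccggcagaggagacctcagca
The printed Pth1r promoter has 54.3% G and C, against 68.0% and 69.3% in the other Pth1r promoters and 67.3% to 76.3% in those of the other 4 genes. A match is a description of letters and not a bound site, and whether any peak falls on these promoters is not known across builds.

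Across the 5 windows Sox6 peaks were 3.32 times as dense as in the list as a whole, at 102 per Mb against 30.8 per Mb, and Sox9 peaks were 2.08 times as dense, at 19.3 per Mb against 9.30 per Mb. The spread between the genes was wide. Pth1r had 267 Sox6 peaks per Mb and no Sox9 peak, Ptch1 had 120 Sox6 and 30.0 Sox9 peaks per Mb, Gli2 had 115 and 37.0, Gli3 had 100.0 and 12.9, and Hhip had none of either. Exact Poisson 95% intervals of the Sox6 fold over the list were 2.01 to 6.80 for Ptch1, 2.53 to 5.29 for Gli2, 2.20 to 4.60 for Gli3 and 4.94 to 14.0 for Pth1r. They cover counting error only and treat peaks as independent, which neighbouring peaks are not. The 14 Sox6 peaks that overlapped a Sox9 peak by at least 1 bp were 15.6% of the 90 (exact binomial 95% interval 8.77 to 24.7), against 23.1% in the whole Sox6 list. From the other side 14 of the 17 Sox9 peaks overlapped a Sox6 peak, or 82.4% (56.6 to 96.2), against 76.7% in the whole Sox9 list. These intervals also treat peaks as independent, although the Sox6 peaks of Pth1r lie together in 1 stretch without Sox9. Both intervals include the values of the whole lists. Averaged over the twentieths of the Sox6 list in which the 90 peaks stand, the shared portion in the list was 25.5%. This lies just above the upper bound of 24.7, but the average was added after seeing the data. As 16 of the 90 peaks lie in 1 stretch without Sox9 at Pth1r, no difference is read from it. In the first 50% of each list the direction turned, with 24.4% of 41 Sox6 peaks shared in the windows, against 22.5% in the list.

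**Figure D1:**
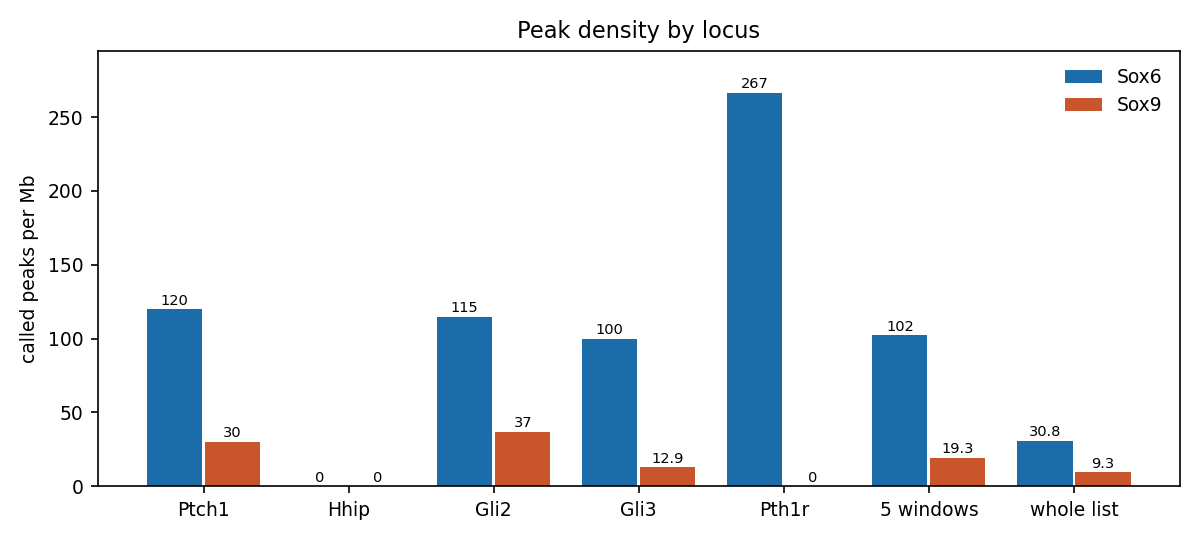
Called peaks per Mb (vertical axis) for Sox6 (blue) and Sox9 (orange) in each window, in the 5 windows together and over the whole lists. Sox6 density ran from 0 at Hhip to 267 per Mb at Pth1r, and Sox9 density from 0 at Hhip and Pth1r to 37.0 per Mb at Gli2.

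**Figure D2:**
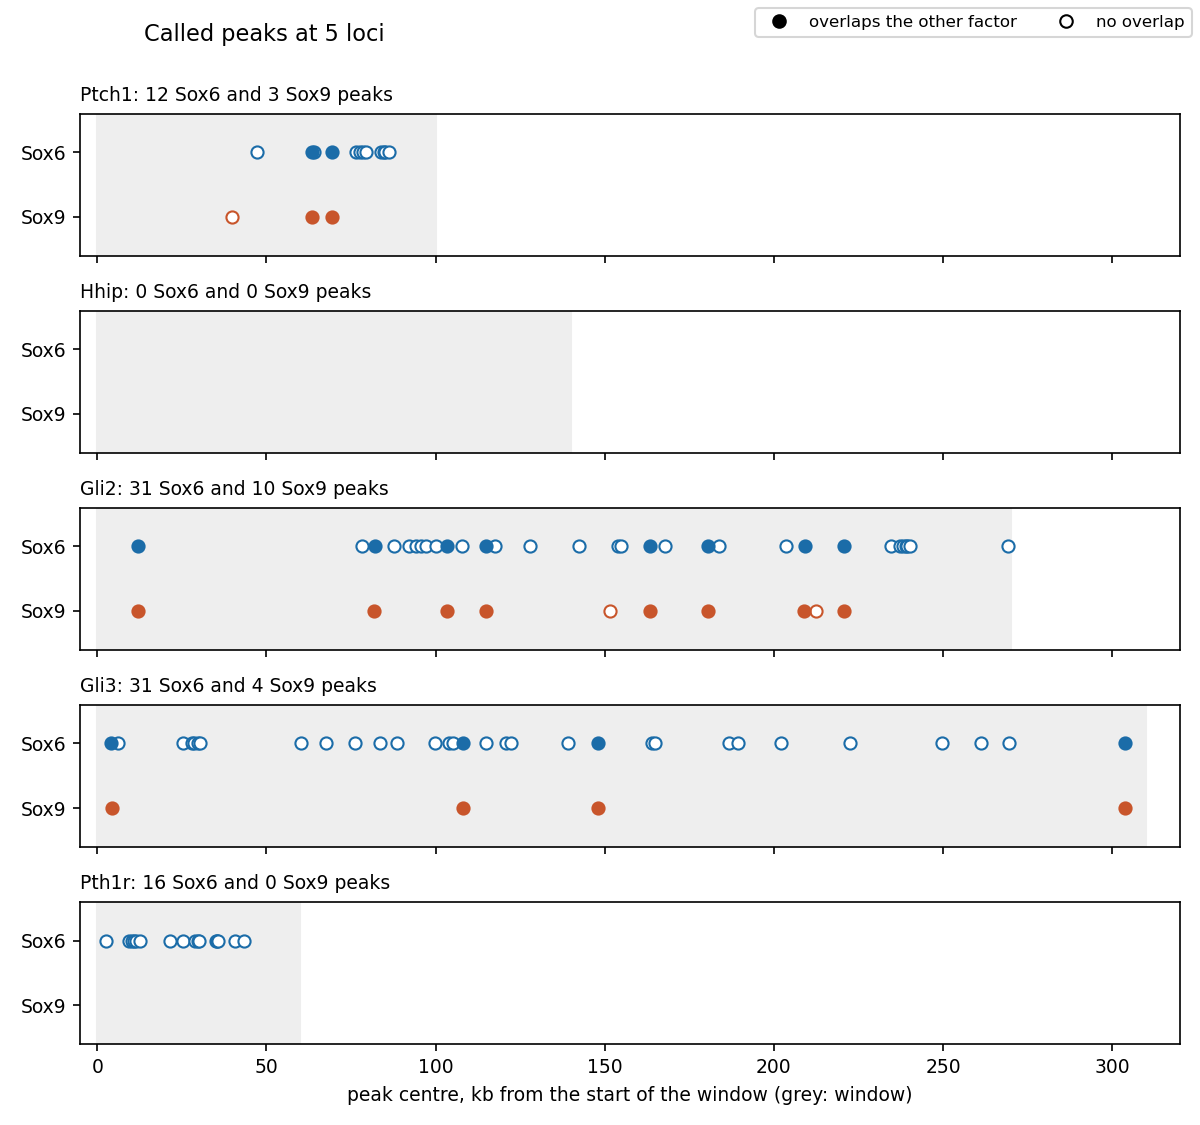
Peak centres in kb from the start of each window (horizontal axis), with Sox6 above and Sox9 below; filled points overlap a peak of the other factor and open points do not. Filled points are spread along the Gli2 window and absent from Pth1r, and the Hhip window is empty.

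Ptch1 encodes the hedgehog receptor and is itself a transcriptional target of the pathway. Its 100 kb window held 12 Sox6 and 3 Sox9 peaks, and 2 of each overlapped (16.7% and 66.7%, against 23.1% and 76.7% in the whole lists). The genome was cut into adjoining tiles of the same length to read such counts: 5.49% of 25647 tiles of 100 kb had 12 or more Sox6 peaks and 12.6% had 3 or more Sox9 peaks. Tiles are not set around genes and include sequence poor in genes, so the shares describe the lists and are no test. Of the tiles with 12 or more Sox6 peaks, 35.2% held 3 or fewer Sox9 peaks.

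The Sox6 peaks of Ptch1 lay close together. A single cluster, a run of 3 or more peaks of 1 factor with neighbouring centres at most 12.5 kb apart, held 11 of the 12 in 22.9 kb from 63653324 to 63676188. The first 47.2 kb of the window had no Sox6 peak. The shared sites were at the left end of that cluster. At one, Sox6 was called from 63653324 to 63653482 and Sox9 from 63653284 to 63653377, with 54 bp in common and centres 72.5 bp apart. At the other, the widest Sox6 peak of the window, from 63659189 to 63659480 (292 bp), enclosed a Sox9 peak from 63659289 to 63659408, and the centres were 14.0 bp apart. The 8 Sox6 peaks in the last 25 kb of the window met no Sox9 peak. The third Sox9 peak, from 63629700 to 63629866, was 7376 bp from the nearest Sox6 centre and came late in its list, at place 22618.

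The lists carry no score, and their order is not documented, so a place in the list is given as a position and not as a strength. Consecutive places can also fall in 1 window, such as places 62457 and 62458 at Ptch1, 2357 bp apart, and places 72187, 72188 and 72189 at Gli3. The earliest Sox6 peak of Ptch1, from 63669241 to 63669316 (76 bp), stood at place 4326 and was not shared. The shared ones came later, at places 39421 and 55737, or 49.8% and 70.5% of the way down the list. Their Sox9 partners stood at places 9729 and 11562. In the whole Sox6 list shared peaks had a median place of 19.4%, so the shared sites of Ptch1 came later than most.

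Hhip encodes a membrane-bound antagonist that captures hedgehog ligands, and like Ptch1 it is a target of the pathway. Neither factor had a peak anywhere in its 140 kb window. Tiles of 140 kb without a Sox6 peak made up 33% of 18315, and tiles with neither factor 32.6%, so an empty stretch of this length is common. The nearest Sox6 peak outside was from 82465023 to 82465157, 4911 bp before the window, at place 28613 and unshared. The next on the other side, from 82643421 to 82643599, was 33510 bp after it. Between these peaks 178420 bp separated the centres, and the centres of the flanking Sox9 peaks were 386001 bp apart. Of these Sox9 peaks the one before the window, from 82392265 to 82392488, overlapped a Sox6 peak and stood at place 1672. The one after it, from 82778293 to 82778461, stood at place 836 and did not. An empty window says that no site passed the authors' calling there, not that the factors are absent.

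Gli2 encodes the main transcriptional activator of hedgehog signalling in chondrocytes. Its 270 kb window held 31 Sox6 and 10 Sox9 peaks, of which 8 on each side were shared, out of 14 shared sites at the 5 genes. Tiles of 270 kb with 31 or more Sox6 peaks made up 3.52% of 9495, and those with 10 or more Sox9 peaks 5.57%. Of the tiles with that many Sox6 peaks, 41.9% had 10 or fewer Sox9 peaks. The shared portion of the Sox6 peaks was 25.8% (exact binomial 95% interval 11.9 to 44.6), against 23.1% in the list and 31.1% over the same twentieths of it. That of the Sox9 peaks was 80.0% (44.4 to 97.5), against 76.7% in the whole Sox9 list.

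The shared sites of Gli2 ran from 12.1 to 221 kb from the start of the window. The earliest Sox6 peak of the locus was one of them: it spanned 120824740 to 120824922 (183 bp) and stood at place 255 of 79107. A Sox9 peak from 120824677 to 120824846, at place 1699, overlapped it by 107 bp. Among all tiles of 270 kb, 2.51% contained a Sox6 peak at place 255 or earlier. Over all 9495 tiles the median was 5 Sox6 peaks, so the share is not matched to the 31 of this window. The Sox9 peak that came first at Gli2, at place 1145, spanned 120873328 to 120873530. It covered nearly the same bases as the Sox6 peak from 120873336 to 120873534 at place 1974, with 195 bp in common and centres 6.0 bp apart.

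The next shared Sox6 peaks in list order were from 120890448 to 120890572 at place 2378, from 120813181 to 120813318 at place 3563 and from 120930702 to 120930815 at place 8082. Each of these lay wholly inside its Sox9 peak. The remaining 3 shared Sox6 peaks, named after their values were seen, were at places 8396, 20268 and 22006. The one at place 20268, from 120791906 to 120791971, was the narrowest Sox6 peak of the locus at 66 bp and shared only 32 bp with its Sox9 peak. All 8 fell in the first 27.8% of the Sox6 list, with a median at 7.36%, whereas the 23 unshared Sox6 peaks had a median at 57.8%. Shared peaks come early in the whole list as well, with medians of 19.4% and 58.6%.

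Outside the shared sites, Gli2 had a long empty stretch and a tight unshared group. No Sox6 peak lay between 12.1 and 78.2 kb from the window start, a gap of 66.1 kb. The cluster with most Sox6 peaks held 13 from 120788106 to 120838087, of which 3 were shared. A cluster of 6 Sox6 peaks within 5.76 kb, from 120944578 to 120950335, met no Sox9 peak although it included the Sox6 peak at place 1551, the second earliest of the locus. The widest Sox6 peak, from 120877554 to 120877812 (259 bp), was unshared as well. The unshared Sox9 peaks were from 120922395 to 120922582 at place 13937 and from 120861284 to 120861645 at place 16956, and their nearest Sox6 centres were 3404 and 2595 bp away. A further shared pair lay just outside the window, with the Sox6 peak from 120708976 to 120709098 at place 1844, its centre 964 bp before the window start. The last Sox6 peak inside, from 120979303 to 120979417, stood at place 75063.

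Gli3 encodes the GLI factor that in the absence of hedgehog ligand is processed to a transcriptional repressor. Its 310 kb window held as many Sox6 peaks as that of Gli2, 31, but 4 Sox9 peaks. All 4 Sox9 peaks were shared (exact binomial 95% interval 39.8 to 100), against 76.7% in the whole Sox9 list. Tiles of 310 kb with 31 or more Sox6 peaks made up 5.34% of 8264, and tiles with 4 or more Sox9 peaks 30.1%. The 441 tiles with at least 31 Sox6 peaks held up to 121 of them, so Gli3 stands at the lower edge of that group. Among these tiles the median number of Sox9 peaks was 12, and 3.4% had 4 or fewer. When the tiles were moved by 155 kb that share was 3.19%. The shared portion of the Sox6 peaks was 12.9% (exact binomial 95% interval 3.63 to 29.8), against 23.1% in the list and 26.1% over the same twentieths of it. In the first 50% of each list it was 33.3%, 4 of 12, against 22.5% in the list, and at equal list lengths 40%, 4 of 10, against 49.9%. The Sox9 density was 1.39 times that of the list (Poisson 95% interval 0.378 to 3.55).

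The shared sites of Gli3 all came from the early part of the Sox6 list. The earliest peaks of both factors at this gene met at 1 site near the window start: Sox6 from 15534053 to 15534217 at place 228, and Sox9 from 15534119 to 15534252 at place 335, with 99 bp in common. These were the earliest peaks of each factor in the 5 windows. Among all tiles of 310 kb, 2.55% had a Sox6 peak at place 228 or earlier. Over all 8264 tiles the median was 6 Sox6 peaks, so the share is not matched to the 31 of this window. The other shared Sox6 peaks were from 15677926 to 15678048 at place 3325, from 15638137 to 15638334 at place 4448 and from 15833768 to 15833888 at place 6406. Their Sox9 partners stood at places 8075, 5646 and 8947. Centres of the 4 pairs were 9.5 to 50.5 bp apart.

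Between the shared sites of Gli3 lay long runs of Sox6 peaks alone. No Sox9 peak lay between 148 and 304 kb from the window start, a stretch of 156 kb. The cluster with most Sox6 peaks held 12 in 62.4 kb, from 15590186 to 15652549, and 1 of them was shared. A cluster of 5 within 5.32 kb, from 15555158 to 15560479, had none shared, and its earliest peak stood at place 5196. The 27 unshared Sox6 peaks had a median place of 73.2%, and 8 of the 31 Sox6 peaks were in the last 10% of the list. The widest Sox6 peak, from 15652190 to 15652549 (360 bp), was among these at place 77474. The site at place 228 lies 4.13 kb inside the window start and the one at place 6406 lies 304 kb from it, near the other end. With windows shortened by 10% at both ends the Sox9 count of Gli3 was therefore 2, against 4. With windows 50 kb longer on both sides the count was 8, at 2.10 times the density of the list, so the low count depends on the window.

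**Figure D3:**
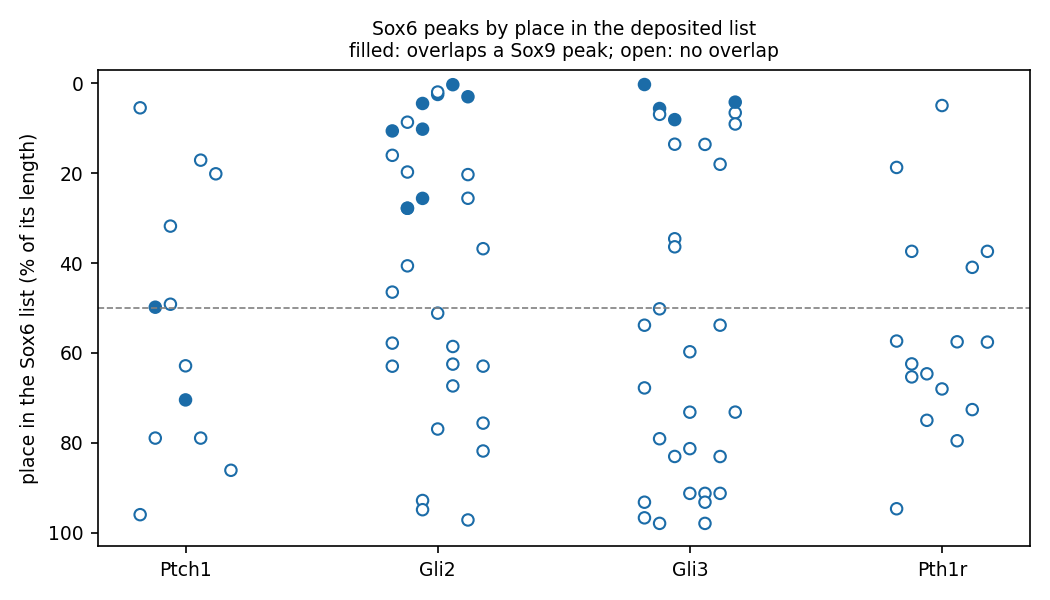
Place of each Sox6 peak in the deposited list as a percentage of its length (vertical axis, first peaks at the top) at the 4 loci with peaks; filled points overlap a Sox9 peak, and points are spread sideways only to separate them. All shared peaks of Gli2 and Gli3 lie in the first 27.8% of the list, those of Ptch1 lie at 49.8% and 70.5%, and Pth1r has none.

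Pth1r encodes the receptor for parathyroid hormone and its related protein. It had the highest Sox6 density of the 5 genes and no Sox9 peak: 16 Sox6 peaks in a 60 kb window, or 8.65 times the density of the list. The density depends on the short window: with windows 50 kb longer on both sides Pth1r had the same 16 Sox6 peaks at 3.24 times the list, near the 3.16 times of Gli2 and 3.09 times of Gli3, and 2 Sox9 peaks. Such a count was uncommon, since 0.442% of 42751 tiles of 60 kb had 16 or more Sox6 peaks. A window of this length without Sox9 was common, at 71.3% of tiles. The 189 tiles with 16 or more Sox6 peaks held up to 51 of them, so Pth1r stands at the lower edge of that group. Among these tiles the median was 5.0 Sox9 peaks, and 1 had no Sox9 peak (0.529%). That share depends on where the tiles start. With tiles moved by 30 kb, 11 of 214 had none (5.14%), 1 of them on this locus itself.

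None of the 16 Sox6 peaks met a Sox9 peak, against 23.1% in the list. These peaks lie together in a stretch without Sox9, so their lack of overlap is 1 observation and not 16. All 16 formed 1 cluster of 41.3 kb, from 110612349 to 110653650, and the last 15 kb of the window had no peak. From each Sox6 centre to the nearest other Sox6 centre the median was 653 bp, against 2342 bp in the list. The earliest peak, from 110620742 to 110620852 (111 bp), stood at place 3924, and 5 of the 16 came in the first 50% of the list. The median place was 60.0%. Over the same twentieths of the list the shared portion was 17.6%. The widest Sox6 peak of the 5 genes was here, from 110638716 to 110639168 (453 bp), and another was 452 bp. Peaks wider than 250 bp numbered 4 of 16, or 25%, against 13.7% in the list.

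The nearest Sox9 peak to Pth1r, from 110683734 to 110683906 at place 18860, lay 13820 bp past the window end and overlapped no Sox6 peak. On the other side the nearest was 230754 bp before the window start. The Sox6 peaks of Pth1r were 30396 to 71380 bp from a Sox9 centre, with a median of 46687 bp. That median was 21120 bp at Gli3, 8780 bp at Ptch1 and 4474 bp at Gli2, against 7615 bp in the whole Sox6 list. Every Sox6 peak of Pth1r was farther from Sox9 than any at Ptch1, where the largest distance was 16752 bp. At Gli2 and Gli3 the largest distances, 48594 and 74611 bp, overlapped the range of Pth1r.

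**Figure D4:**
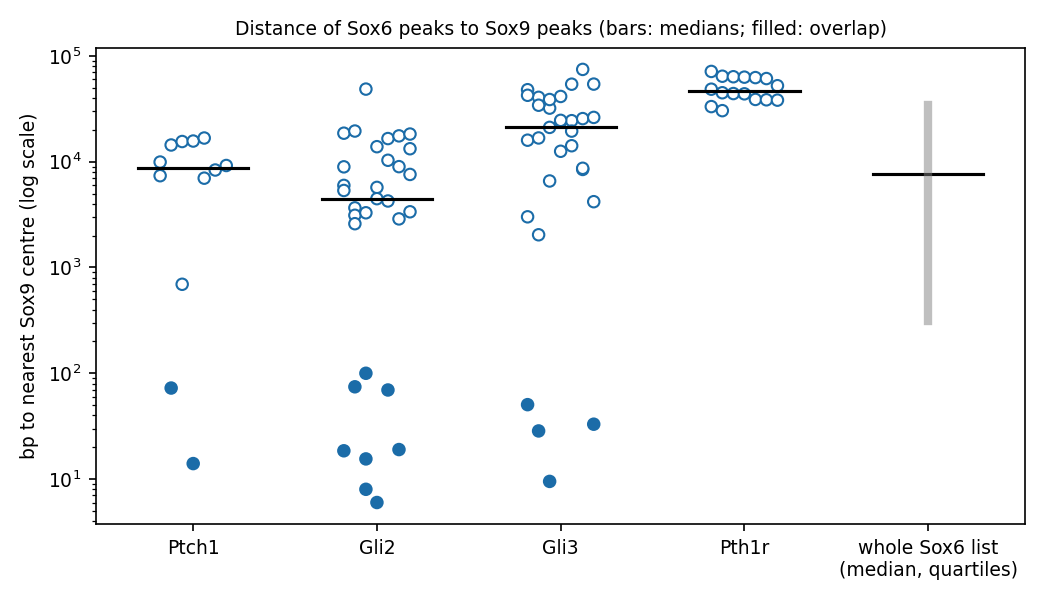
Distance in bp from each Sox6 centre to the nearest Sox9 centre (log scale) at the 4 loci with peaks, with black bars at medians, and the median and quartiles (grey) of the whole Sox6 list; filled points overlap a Sox9 peak. The Pth1r points all lie above 30395 bp, and the quartiles of the list are 315 and 34197 bp.

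Peaks of the factors met at 3 genes, and the overlap of such narrow peaks by itself keeps their centres near each other. Over the 14 pairs the offset ran from 6.0 to 100.0 bp with a median of 23.8 bp, and 9 were within 50 bp. In the whole Sox6 list the median over 18237 shared peaks was 40.0 bp, and 58.7% were within 50 bp. Few peaks were near but not overlapping: 15 of the 90 Sox6 peaks had a Sox9 centre within 1000 bp, 1 more than those shared, and that one was at Ptch1. Counting the overlapping peaks too, 31.0% of the whole list were this near, against 16.7% in the windows. Overlapping peaks alone made up 23.1% of the list and 15.6% in the windows. Sox6 widths at the 5 genes had a median of 147 bp, against 151 bp in the list, and Sox9 widths 188 bp, against 183 bp. Clusters held 82.2% of the Sox6 peaks in the windows, against 62.9% in the list, and 17.6% of the Sox9 peaks, against 30.5%. The only Sox9 cluster was at Gli2, with 3 peaks from 120918925 to 120930847, of which 2 were shared.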

How the data were processed

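The authors deposited both peak lists as 3 bare columns (chromosome, start, end), with no score, fold or count. For the Sox6 and input samples, Bowtie and mm9 are given (no versions) per the submitters' processing notes. Not given in the sources used here are the peak caller and the build of the Sox9 list, which was read as mm9. Both lists are named with an FDR1 mark, which may give the threshold but is not explained. Starts were taken as counted from 0 and are printed counted from 1. Peaks were assigned to a window by centre, and overlaps, distances, clusters and tiles were computed with Python 3.11.15, pandas 2.3.3 and numpy 2.4.6, and exact intervals with scipy 1.17.1. Functions were tested on simulated lists. Tiles run from the first to the last peak of each chromosome, in all 2566 Mb, which is also the denominator of list density. The named peaks of each locus were the earliest of each list, up to 5 shared Sox6 peaks, up to 3 unshared Sox9 peaks, the widest Sox6 peak and the largest cluster. The members, lists and rules were chosen with earlier results of these data known. No test was run, since there is 1 list per factor. Counts for other hedgehog genes were planned but need an mm9 annotation and were not analysed here.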

Additional observations from a re-analysis of the deposited data

How the results depend on the processing

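Most values for the 5 windows together moved little: 28 of 34 stayed within 1.5 times the count or within the 95% interval. That count leaves out the list values, which moved too. With 50% of both peaks overlapping, 12.2% of Sox6 peaks were shared, against 13.4% in the list. For Sox9 peaks it was 64.7%, against 44.6%. With gaps of up to 1000 bp allowed, the Sox9 direction turned, at 82.4% against 90.8%, and Sox6 had 16.7% against 32.3%. At equal list lengths 70.6% of Sox9 peaks were shared, against 50.3%. The shared portion of Sox6 peaks was 40.0% at equal list lengths, against 49.9% in the shortened list, and the Sox6 density was 2.54 times that of the list with windows 50 kb longer on both sides. With the first 50% of each list 41 Sox6 and 11 Sox9 peaks were left, as fewer peaks enter, and the shared portion of Sox6 peaks was 24.4%, above the 22.5% of the list. Sox9 clusters numbered 0 with neighbouring centres within 5000 bp and 5 within 25000 bp, against 1. At single loci, both shared sites of Ptch1 were lost when 50% of both peaks had to overlap. With windows 50 kb longer on both sides, Hhip had 4 Sox6 peaks, Pth1r had 2 Sox9 peaks and a Sox6 density of 3.24 times the list, and Gli3 had 8 Sox9 peaks. The comparison with the same twentieths of the Sox6 list and the moved tiles were added after seeing the data. No paired analysis was possible because there is 1 list per factor and no test. Depth is unknown, so an absent peak cannot be told from a site below the threshold.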
